A study of Mus musculus with 6 samples.

Results

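Axon guidance genes were examined in the posterior body of mouse embryos at E9.5 that carried or lacked a mutation of Fkbp8. The members were all array probes whose gene symbol belongs to the semaphorin, plexin, slit, robo, netrin, Unc5, ephrin or Eph receptor families, together with Nrp1, Nrp2, Dcc and Neo1. Slitrk genes were left out. The rule found 69 of the 18546 gene symbols on the array, in 13 families and with 85 of the 34967 gene probes, and it used the names only and no measured value. Tissue just behind the forelimb bud came from 3 samples of Fkbp8 mutants (arrays a, b and c) and 3 samples of wildtypes (arrays d, e and f), all from intercrosses of heterozygous carriers. What the mutation is goes unstated in the labels, which name no other allele or treatment. The source label of mutant a is in the plural and may stand for several embryos. Nothing states that the samples came from separate litters, so p-values reflect only how these 6 samples vary.

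Guidance ligands steer growing axons and migrating cells by attraction or repulsion. Netrins act through Dcc and neogenin, and through Unc5 receptors when they repel. Slits repel through robos, and secreted semaphorins repel through neuropilins and plexins, whereas most membrane semaphorins bind plexins directly. Ephrins and Eph receptors sit on the membranes of touching cells and signal in both directions. At this stage of development the same molecules also act outside axons, in the borders of somites, the paths of neural crest cells, the floor plate and the forming blood vessels.

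The labels were checked against the target gene and against tissue markers. Fkbp8 had log2 intensities of 10.57, 10.74 and 10.67 in wildtypes d, e and f and of 6.28, 6.30 and 6.11 in mutants a, b and c. It was above background in 0 of 3 mutants and at least 18.8-fold lower there (limma adjusted p = 1.18e-07). Above background means that the scanner software marked the spot as good or saturated, and between 57.6% and 61.8% of gene probes were so marked per array. All 5 markers of the posterior axis (Hoxa9, Hoxb9, Hoxc10, Cdx2, T) were measured. Of these, 3 were lower and 2 higher in mutants, and their mean overlapped between groups. Hoxa9 was lower in every mutant, at 9.02 to 9.10 against 9.41 to 9.73 in wildtypes. Its log2 fold change was -0.51 (limma adjusted p = 0.147). Whether the dissected level differed between groups was not tested. Of the forebrain markers, Otx2 was not above background on any array but Emx2 was on all 6 (7.61 to 8.12). The groups also differed in sex-linked genes: Eif2s3y, a Y-linked gene, read 9.51 to 9.61 in mutants and 6.19 to 6.28 in wildtypes, and Xist read 6.07 to 6.21 and 7.98 to 8.31. The effects of genotype and of embryo sex therefore cannot be told apart in these 6 arrays. In whole tissue, fewer cells of a type and less RNA per cell also cannot be told apart.

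Of the 85 guidance probes, 68 (59 genes) were bright enough to be tested, and 58 were above background on all 6 arrays. The other 17 probes were above background on none (12 probes) or on 1 or 2 (5 probes) of the 6 arrays, and 10 genes had no tested probe. Absent from the test for this reason were Ntn1, Ntn4, Ntn5, Sema4f, Sema6b, Sema6c, Sema7a, Efnb2, Epha10 and Plxnb3. No guidance gene passed the test over the whole array: 0 of 68 probes had an adjusted p under 0.05 in limma, where 0.12% of all 21688 tested probes did. The smallest adjusted p of a member was 0.154, for Slit1. At an unadjusted p under 0.05 there were 11 member probes (16.2%), against 12.2% of all probes. Of the 11, 8 were higher in mutants (background 6.43%) and 3 were lower (background 5.81%).

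The mutant values lay wholly above or wholly below the wildtype values for 18 of 68 member probes (26.5%), against 19.7% of all probes. They lay above for 12 (17.6%, background 11.2%) and below for 6 (8.82%, background 8.56%). Without mutant c, which leaves fewer values to overlap, the count was 29 of 68 (42.6%), against 32.4% of all probes. The median log2 fold change, mutant minus wildtype, was 0.037 over the members and 0.0085 over all tested probes. The median size of the change, without its sign, was 0.12 in members and 0.092 in all probes. In all, 41 members were higher and 27 lower (60.3% higher, against 52.4% of all probes). None of the 68 differed by more than 1.5-fold, while 235 of all 21688 tested probes did, a share too small for 0 of 68 to stand out. On background-subtracted values and in the deposited table, which have no offset, 3 of 68 members (Slit1, Epha3 and Sema3a) passed 1.5-fold. So did 925 and 914 of all tested probes, and the count of members is not read as a result about them. Slit1 also passed 1.5-fold without background correction or without wildtype e, and Epha4 without mutant c. The changes described next did not pass the adjusted test and are given as values.

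**Figure D1:**
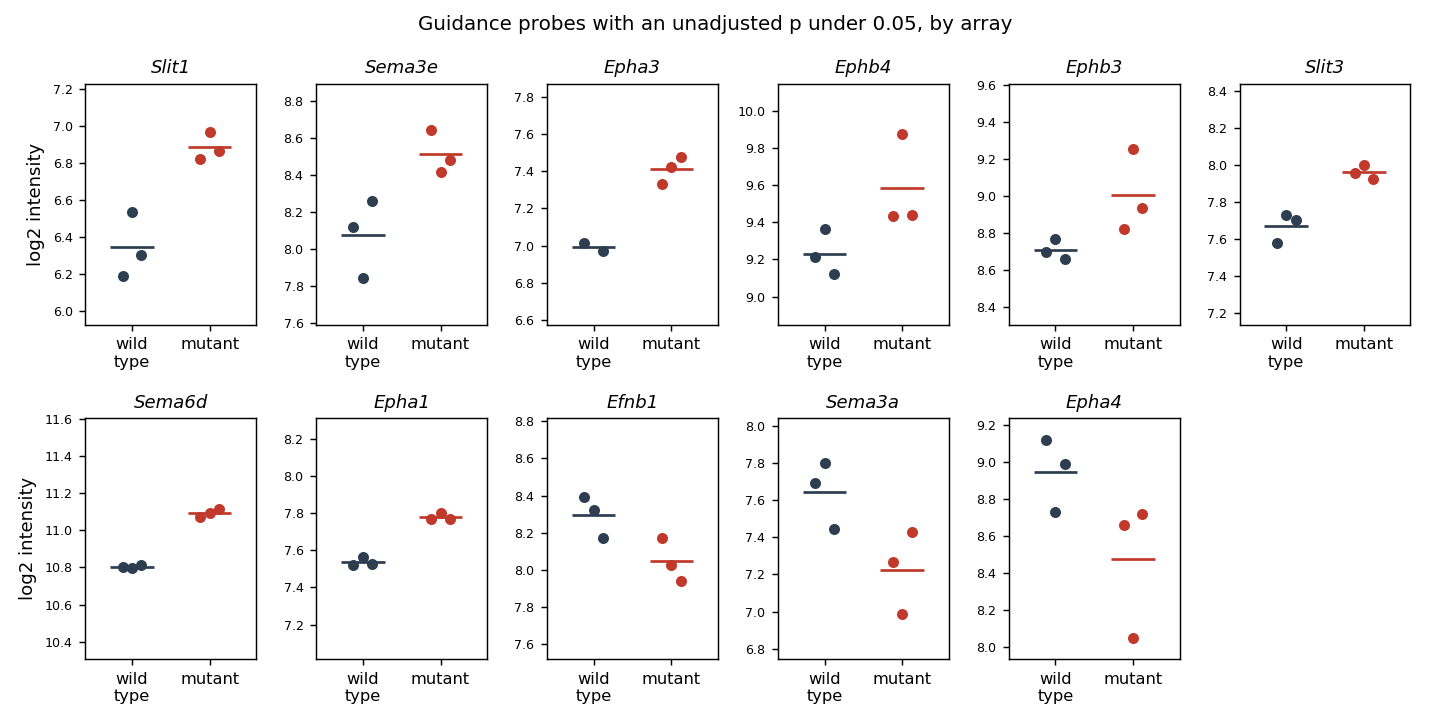
Log2 intensity (vertical axes, each spanning the same range) of the 11 guidance probes with an unadjusted p under 0.05, with 1 point per array and a bar at the group mean (wildtype d, e, f and mutant a, b, c from left to right; 1 wildtype spot of Epha3 was missing). Slit1, Epha3, Sema6d, Epha1 and Slit3 show clear gaps between the groups, while Efnb1, Sema3a and Epha4 nearly touch.

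Slits are large secreted repellents, made among other places in the floor plate, the strip of cells at the ventral midline of the neural tube. Slit1 had the smallest p of all members. Its probe GE124079 read 6.82, 6.96 and 6.86 in mutants a, b and c and 6.19, 6.54 and 6.31 in wildtypes d, e and f. All mutants lay above all wildtypes, by 0.29 at the nearest values. The log2 fold change was 0.54 (SE 0.10), or 1.45-fold, with an unadjusted p of 0.000546 and a limma adjusted p of 0.154. The signal was dim, since this probe was above background in 3 of 3 mutants but in only 1 of 3 wildtypes. On scales without the normexp offset the change of this dim probe was larger, 1.44 on background-subtracted values and 1.46 in the deposited table, with an adjusted p of 0.322 in both. The other Slit1 probe, GE33353, was above background in mutant b alone (6.55, against 6.04 and 6.19 in the other mutants and 6.07 to 6.12 in wildtypes) and was not tested.

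Slit3 showed the same order at a higher signal. It read 7.96, 8.00 and 7.92 in mutants and 7.58, 7.73 and 7.70 in wildtypes, a log2 change of 0.29 (SE 0.08, adjusted p = 0.239). The groups were separated by 0.19, more than the range of the mutants. Slit2 gave no common direction over its probes, and both values moved with single arrays left out. GE33354 read 8.72, 8.92 and 8.50 in mutants and 8.65, 8.62 and 8.48 in wildtypes, overlapping, with a log2 change of 0.13 (SE 0.11). GE111774 read 7.06, 6.99 and 6.80 against 7.11, 7.09 and 7.13, a log2 change of -0.16 (SE 0.09, adjusted p = 0.497) without overlap. Over the 4 tested slit probes the median log2 fold change was 0.21. Without the dim Slit1 probe, which entered the test through the mutants, it was 0.13.

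Floor plate markers were set beside the slits, of which none passed the test. All 4 tested floor plate markers were higher in mutants, and their mean read 8.45 to 8.87 in mutants and 7.77 to 7.88 in wildtypes. Foxa2, a floor plate transcription factor, rose with a log2 change of 1.08 (limma adjusted p = 0.0403), while Shh, the ventral signal made there, differed by 0.21 (adjusted p = 0.503). Ferd3l, which also marks the floor plate, was not above background on any array. The part of floor plate cells in the slit values was not tested.

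Robos, the slit receptors, had no shared direction, with 2 of 5 tested probes higher and a median log2 fold change of -0.031. Robo1 read 7.46, 7.59 and 7.75 in mutants and 7.49, 7.77 and 7.63 in wildtypes, overlapping throughout (log2 fold change -0.031, SE 0.11). Its 95% interval ran from -0.27 to 0.21. Robo2 probes opposed each other. GE126540 read 8.04 and 7.91 in mutants a and b and 7.72, 7.85 and 7.72 in wildtypes, with the spot of mutant c missing, a log2 change of 0.21 (SE 0.09, adjusted p = 0.414). GE1484911, above background in 1 of 3 mutants and 3 of 3 wildtypes, gave -0.15 (SE 0.10). This dim probe entered the test through the wildtypes and is included in the robo count and median above. Robo3, a family member that lets commissural axons cross the midline, read 7.97, 8.30 and 8.18 in mutants and 8.43, 8.51 and 8.25 in wildtypes. Only mutant b lay within the wildtype range, and the log2 fold change was -0.25 (SE 0.11, adjusted p = 0.41). Robo4, the endothelial member, differed by 0.055 (SE 0.08).

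Netrin 1, the classical floor plate attractant of commissural axons, was not measurable on this array. Its single probe was above background in 0 of 6 samples (6.09 to 6.24 in mutants, 6.12 to 6.43 in wildtypes), so no fold is given. Ntn3 was the only netrin tested, with 2 arrays above background in each group and a log2 change of -0.038 (SE 0.13). Dcc, the netrin receptor of commissural axons, read 6.74, 6.77 and 6.65 in mutants and 6.68, 6.51 and 6.48 in wildtypes with probe GE1532617. Mutant c lay just below wildtype d, and the log2 fold change was 0.16 (SE 0.08, adjusted p = 0.467). The other Dcc probe was above background on 0 arrays. Neo1, which binds netrins and repulsive guidance molecules, read 7.72, 7.95 and 7.97 against 7.68, 7.73 and 7.87, a log2 change of 0.12 (SE 0.10) with overlapping groups.

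The Unc5 receptors, which turn netrin into a repellent, barely differed. Their 4 tested probes gave log2 fold changes from 0.014 to 0.053, and all groups overlapped. Unc5b, also known from tip cells of blood vessels, read 9.34, 9.37 and 9.54 in mutants and 9.39, 9.47 and 9.23 in wildtypes (log2 fold change 0.053, SE 0.09). Unc5c, known from migrating cerebellar cells, read 8.33, 8.23 and 8.25 against 8.40, 8.21 and 8.16 (0.014, SE 0.09). The direction of both turned when single arrays were left out.

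**Figure D2:**
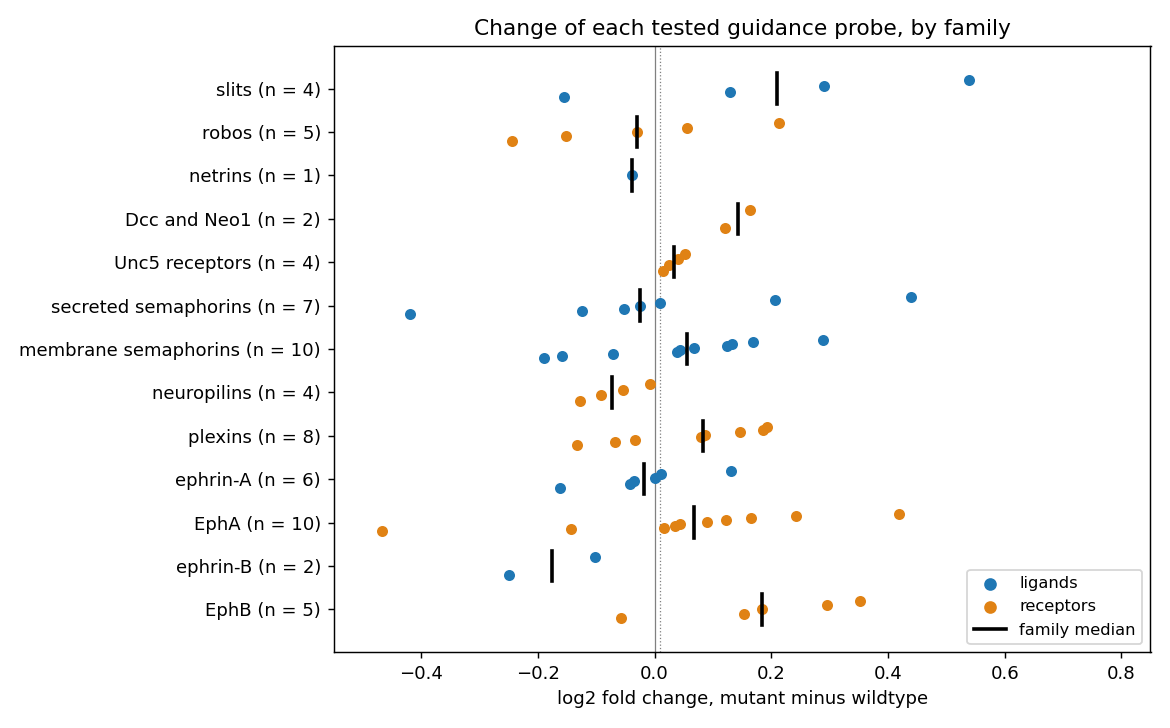
Log2 fold change, mutant minus wildtype (horizontal axis), of each of the 68 tested guidance probes by family, with 1 point per probe, a black bar at the family median and a dotted line at the median of all tested probes (0.0085). The medians of the slits (0.21) and EphB receptors (0.18) lie farthest to the right and the ephrin-B ligands (-0.18) farthest to the left, and most families span both signs. Without the dim Slit1 probe, which entered the test through the mutants, the slit median was 0.13, below that of Dcc and Neo1 (0.14).

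Secreted semaphorins held a higher and a lower member of nearly equal size. Sema3e, a ligand of plexin D1 that limits vessel growth around the somites, read 8.64, 8.42 and 8.48 in mutants and 8.12, 7.84 and 8.26 in wildtypes. All mutants lay above all wildtypes, with a log2 change of 0.44 (SE 0.12, adjusted p = 0.243), or 1.36-fold. Sema3a, a repellent of sensory and motor axons that binds Nrp1, read 7.26, 6.98 and 7.43 in mutants and 7.70, 7.80 and 7.44 in wildtypes. Its log2 fold change was -0.42 (SE 0.13, adjusted p = 0.291), and only 0.015 separated mutant c from wildtype f. On background-subtracted values it was -0.64 (adjusted p = 0.412). Sema3f, the Nrp2 ligand that channels neural crest cells through the somites, overlapped fully, at 6.58, 6.67 and 6.76 against 6.62, 6.81 and 6.55 (log2 fold change 0.0093, SE 0.09).

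Probes of Sema3c, which guides neural crest cells to the heart, again disagreed. GE103146 gave 0.21 (SE 0.11) and GE36759 gave -0.12 (SE 0.10), both with overlapping groups. Without mutant b these were 0.099 and -0.040, and without mutant c 0.32 and -0.21. The remaining secreted members, Sema3b and Sema3d, differed by -0.025 and -0.053. Over the 7 tested secreted probes, 3 were higher and 4 lower, with a median of -0.025.

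Among membrane semaphorins, 7 of 10 tested probes were higher in mutants, with a median log2 fold change of 0.056. Sema6d, a plexin A1 ligand known from heart and spinal cord development, had the tightest replicates of the members with a small p. Its probe GE1397234 read 11.07, 11.09 and 11.11 in mutants and 10.80, 10.80 and 10.81 in wildtypes. The gap of 0.26 was several times the range within either group. The log2 fold change was 0.29 (SE 0.07, adjusted p = 0.221), or 1.22-fold. The other tested Sema6d probe, GE38493, gave 0.13 (SE 0.09) with overlapping groups, and the remaining probe, GE1559820, was above background on 0 arrays. Sema4g was also higher in every mutant (0.12, SE 0.07), whereas Sema4b read 6.99, 6.86 and 7.13 against 7.11, 7.14 and 7.21 (-0.16, SE 0.09, adjusted p = 0.499). The other tested members, Sema4a, Sema4c, Sema4d, Sema5a, Sema5b and Sema6a, ran from -0.19 to 0.17, and their groups overlapped.

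No tested semaphorin receptor probe had groups apart. All 4 neuropilin probes were slightly lower in mutants, from -0.13 to -0.0074, and all overlapped. Nrp1, which also binds Vegfa on endothelium, read 9.85, 9.57 and 9.79 in mutants and 9.65, 9.99 and 9.96 in wildtypes with GE34128 (log2 fold change -0.13, SE 0.12). Its other probe gave -0.054 (SE 0.08). Nrp2 gave -0.0074 (SE 0.10) with GE130342 and -0.092 (SE 0.12) with GE33207, and both signs turned when single arrays were left out.

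Of the 8 tested plexin probes, 5 were higher in mutants, and none of the 8 had groups apart. The untested Plxna4 probe GE1418294, near background, read 6.57, 6.45 and 6.54 against 6.31, 6.32 and 6.45, without overlap. Plxnb2 had the smallest p, at 10.43, 10.70 and 10.60 in mutants and 10.33, 10.45 and 10.36 in wildtypes (log2 fold change 0.19, SE 0.09, adjusted p = 0.43). This receptor of class 4 semaphorins is needed for closure of the neural tube. Plxnd1, the Sema3e receptor of endothelium, read 9.56, 9.97 and 9.51 against 9.51, 9.39 and 9.58 (0.19, SE 0.13). Here mutant b alone lay above the wildtypes, and without it the log2 fold change was 0.042. Plxna1 overlapped fully (-0.033, SE 0.09). The rest ran from -0.13 for Plxnb1 to 0.15 for Plxna2.

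The Eph receptors leaned upward in mutants and their ephrin ligands did not. Of 15 tested Eph probes, 12 were higher, with a median log2 fold change of 0.12. Of 8 tested ephrin probes, 3 were higher, with a median of -0.039. The difference between these lists was not tested.

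Ephrin-B ligands span the membrane and bind mainly EphB receptors. Efnb1, which sets tissue borders in neural crest and skeleton, read 8.17, 8.02 and 7.94 in mutants and 8.39, 8.32 and 8.17 in wildtypes. The log2 fold change was -0.25 (SE 0.09, adjusted p = 0.345), and mutant a lay only 0.001 below wildtype f. Efnb1 is X-linked, and beside it the X-linked Plxna3 differed by 0.086 (SE 0.11), with overlap. The part of embryo sex in the Efnb1 value cannot be told apart from genotype. Efnb3, known from the midline of the spinal cord, gave -0.10 (SE 0.09) with overlapping groups. Efnb2, the arterial ephrin that also acts in somites, was above background in 0 of 3 mutants and 2 of 3 wildtypes (6.47, 6.08 and 6.24 against 6.64, 6.71 and 6.40). It was not tested, and its values lay near background and overlapped between the groups, so no fold is given.

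Of the 5 EphB receptor probes, 4 were higher in mutants, as 52.4% of all probes were, and 3 lay wholly above the wildtypes, as 11.2% of all probes did. Ephb4, the venous receptor of ephrin-B2, read 9.43, 9.88 and 9.44 in mutants and 9.21, 9.36 and 9.12 in wildtypes, a log2 change of 0.35 (SE 0.13, adjusted p = 0.344). Ephb3, expressed in epithelia and neural tissue, read 8.82, 9.25 and 8.93 against 8.70, 8.77 and 8.66 (0.30, SE 0.11, adjusted p = 0.356). In both, mutant b stood far above the other mutants. Without it the log2 fold changes were 0.20 for Ephb4 (unadjusted p = 0.0672, adjusted p = 0.494) and 0.17 for Ephb3 (0.0812 and 0.509). Ephb6, a receptor without kinase activity, was also higher in every mutant (0.18, SE 0.09), Ephb2 gave 0.15 (SE 0.10) and Ephb1 gave -0.058 (SE 0.10), both with overlap.

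Endothelial markers were set beside Ephb4, Plxnd1, Sema3e and Robo4. Of 7 tested markers 3 were higher and 4 lower, with 1 at an unadjusted p under 0.05 in each direction, and the mean of the list read 9.27 to 9.32 in mutants and 9.20 to 9.37 in wildtypes. The mean level of the list thus overlapped between groups. Kdr, the main Vegfa receptor of endothelium, differed by 0.25 (adjusted p = 0.33) and Esam, an endothelial adhesion molecule, by -0.20 (adjusted p = 0.375).

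EphA receptors bind the lipid-anchored ephrin-A ligands, and 8 of 10 tested probes were higher in mutants. Epha1, known from epithelia, read 7.77, 7.80 and 7.77 in mutants and 7.52, 7.56 and 7.53 in wildtypes. The groups were separated by 0.20, and the log2 fold change was 0.24 (SE 0.07, adjusted p = 0.264). Epha3, known from motor axons and mesenchyme, differed between probes. GE107388 read 7.33, 7.43 and 7.48 in mutants and 7.01 and 6.97 in wildtypes d and f, with the spot of wildtype e missing, a log2 change of 0.42 (SE 0.09, adjusted p = 0.2). On background-subtracted values it was 0.69 (adjusted p = 0.283). GE32955 read 7.28, 7.14 and 7.33 against 7.25, 7.11 and 7.29, an overlap throughout (0.035, SE 0.09).

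Epha4, a receptor of motor axons, hindbrain segments and somite borders, had the most negative change of the members. It read 8.66, 8.05 and 8.72 in mutants and 9.12, 8.73 and 8.99 in wildtypes, a log2 change of -0.47 (SE 0.18, adjusted p = 0.356), or 1.38-fold lower. Mutant b was far below the others, and mutant c lay only 0.0091 below wildtype e. Without mutant b the log2 fold change was -0.25 (unadjusted p = 0.0708, adjusted p = 0.497). Of 5 tested markers of neural progenitors 4 were lower, and the mean of the list read 8.63 to 8.84 in mutants and 9.08 to 9.12 in wildtypes. Pax6 fell by 1.15 on the log2 scale (limma adjusted p = 0.00287), and Sox2 was lowest in mutant b as well, at 9.08 against 9.83 to 10.18 on the other arrays (adjusted p = 0.356). Nes was the exception, at 9.95, 9.99 and 10.07 in mutants and 9.79, 9.87 and 9.88 in wildtypes (0.16, adjusted p = 0.424). Sox3 (-0.22, limma adjusted p = 0.493) and Sox1 (-0.054, limma adjusted p = 0.797) overlapped between groups. The list mean includes the large change of Pax6 and was not taken without it. Neural crest markers also lay lower, 4 of 4, with means of 8.27 to 8.33 in mutants and 8.45 to 8.67 in wildtypes. Motor neuron markers overlapped (means of 7.95 to 8.08 and 8.07 to 8.22). The part of these cell types in the Epha4 and Sema3a values was not tested.

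Epha7, known from neural fold closure and from axon maps, had the same array farthest out, in the other direction. It read 8.39, 8.88 and 8.29 in mutants and 8.24, 8.45 and 8.38 in wildtypes (log2 fold change 0.16, SE 0.15), and without mutant b the value was -0.017. Epha8 was lower in every mutant, at 6.93, 7.03 and 6.91 against 7.10, 7.11 and 7.08 (-0.14, SE 0.07, adjusted p = 0.467). Epha2, Epha5 and Epha6 gave 0.017 to 0.12 with overlapping groups. Of the ephrin-A ligands, Efna1, known from vessels, lay lower in every mutant (8.11, 7.83 and 8.09 against 8.23, 8.15 and 8.14, log2 fold change -0.16, SE 0.09, adjusted p = 0.512), and without mutant b the value was -0.072. Efna4 lay higher in every mutant (0.13, SE 0.08). Efna5, a ligand of several EphA receptors, gave 0.0011 (SE 0.07) and -0.042 (SE 0.13) with its probes, both overlapping. Efna2 and Efna3 gave -0.036 and 0.011.

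**Figure D3:**
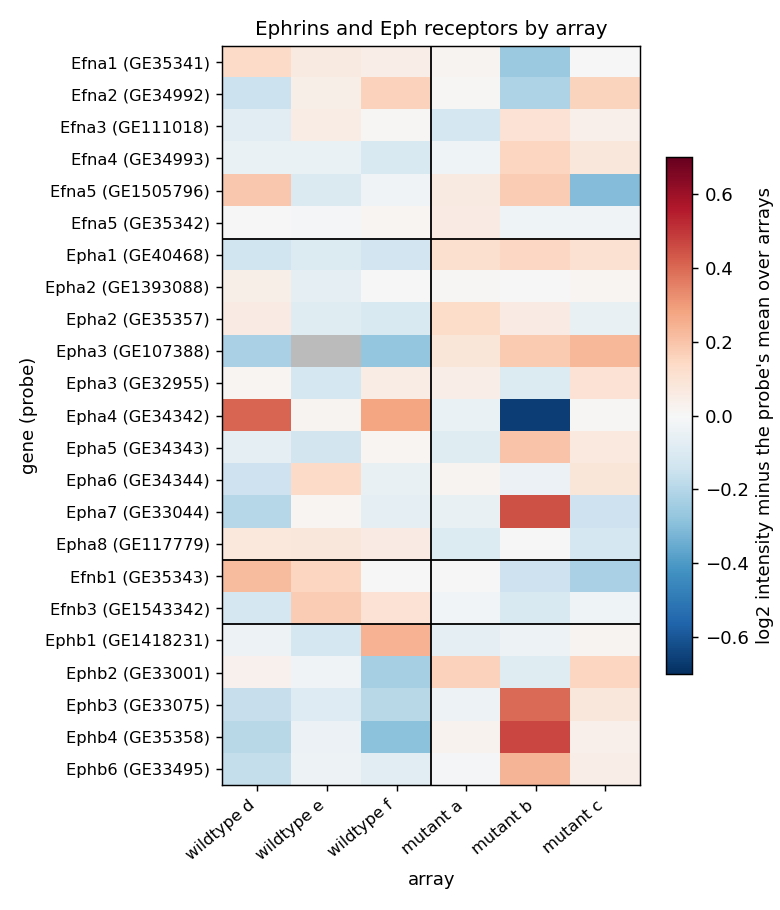
Log2 intensity of each tested ephrin and Eph receptor probe minus that probe's mean over the arrays (colour, red above and blue below the mean, grey for a missing spot), with arrays in columns and probes in rows grouped as ephrin-A, EphA, ephrin-B and EphB. Mutant b holds the darkest cell, low for Epha4 (8.05), and dark cells, high for Epha7 (8.88), Ephb3 (9.25) and Ephb4 (9.88). Wildtype d is also dark for Epha4, on the high side (9.12), while Epha1 is evenly higher in the 3 mutants.

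Among the 11 members with a small p, mutant b held the most extreme mutant value for 7 (Slit1, Slit3, Sema3a, Epha1, Epha4, Ephb3 and Ephb4). In Slit3 (8.00 against 7.96 in mutant a) and Epha1 (7.80 against 7.77) it led by little. The same count was not made over all probes. With mutant b left out, 10 of 67 tested members (14.9%) had an unadjusted p under 0.05, against 10.6% of all probes, and 0 passed the adjusted threshold. Of the 11 probes, 7 kept an unadjusted p under 0.05 in every alternative processing that tested them. The other 4 (Efnb1, Epha4, Ephb3 and Ephb4) did so in 10 to 13 of 16. All 11 were picked by their p on these same arrays, and the matching share of all probes was not counted.

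Several genes had probes that disagreed in size or sign. Of 14 member genes with more than 1 probe, 5 had a single tested probe, 5 had tested probes of the same sign and 4 had probes of opposite signs (Efna5, Robo2, Sema3c and Slit2). Which transcripts each probe detects is not stated in the array tables. For Slit1, Epha3 and Sema6d the change rested on 1 probe.

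Ligands and receptors were then compared as pairs, by the difference of log2 intensities on each array. Since probes differ in brightness, only the change of that difference between groups is given, not the level of one gene against the other. Of 30 pairs listed, 23 could be measured. The 7 others needed Ntn1, Efnb2 or Sema7a. With 3 arrays a group, and likewise where a spot was missing, an exact two-sided permutation test cannot give a p below 0.1, so no pair could pass 0.05. The groups did not overlap for 8 of the 23 pairs, each at that exact p of 0.1, and the ligand and receptor had opposite signs in 14. Neither count was made over other pairs of probes, so neither can be called high or low. Pairs that share a gene are not independent.

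In 4 of the 8 pairs the ligand lay relatively higher in mutants. Slit1 minus Robo1 was -0.64, -0.63 and -0.89 in mutants and -1.30, -1.24 and -1.33 in wildtypes, a change of 0.57 (SE 0.09). Slit1 minus Robo2 changed by 0.34 (SE 0.15), from 2 mutant arrays, and by 0.69 without overlap with the other Robo2 probe. The Slit1 probe was above background in only 1 wildtype, so the sizes of these changes are uncertain. The other Robo2 probe was above background in only 1 mutant. For the value of 0.69 the filter itself thus favoured a positive change, and it adds no support to the pair. Slit3 minus Robo1 changed by 0.32 (SE 0.11). Robo1 itself differed by -0.031. Sema6d minus Plxna1 changed by 0.32 (SE 0.09) with the brightest Sema6d probe. With the other Sema6d probe it changed by 0.17, and the groups overlapped.

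In the other 4 pairs the ligand lay relatively lower. Efnb1 minus Ephb3 was -0.65, -1.23 and -0.99 in mutants and -0.30, -0.45 and -0.49 in wildtypes, a change of -0.54 (SE 0.18). Efnb1 minus Ephb2 was 0.91, 1.01 and 0.69 against 1.27, 1.25 and 1.31, a change of -0.40 (SE 0.10). Here a lower ligand met a higher receptor, with neither gene past the adjusted threshold alone. Efna1 minus Epha2 changed by -0.25 (SE 0.11), and by -0.18 without overlap with the other Epha2 probe. Without mutant b its change was -0.16. Efna5 minus Epha3 changed by -0.42 (SE 0.08) with Epha3 probe GE107388 but by -0.034, with overlap, with GE32955.

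The remaining pairs overlapped with the brightest probes. With another probe of either gene the groups were apart for Slit2 minus Robo2 (-0.29), Slit3 minus Robo2 (0.44), Sema3a minus Nrp1 (-0.37) and Sema3c minus Nrp2 (-0.12). These were picked from all probe combinations because their groups were apart. Further combinations overlapped for Slit2 minus Robo2 (-0.0034 and 0.28) and Sema3c minus Nrp2 (0.30 and -0.033). With the brightest probes Sema3c minus Nrp2 had the opposite sign (0.21). The value of 0.44 used the Robo2 probe above background in only 1 mutant. Sema3a minus Nrp1 changed by -0.29 (SE 0.18) and Sema3a minus Plxna1 by -0.39 (SE 0.17), with overlap and an exact permutation p of 0.2 for both. Sema3e and Plxnd1 were both higher in mutants, and their difference changed by 0.25 (SE 0.21, exact permutation p = 0.4). Slit2 minus Robo1 changed by 0.16 (SE 0.21) and Slit2 minus Robo2, with the brightest probes, by 0.020 (SE 0.17), opposite in sign to the value with the other Slit2 probe. Efna5 minus Epha4 changed by 0.47 (SE 0.23, exact permutation p = 0.2), with mutant c just below wildtype e.

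**Figure D4:**
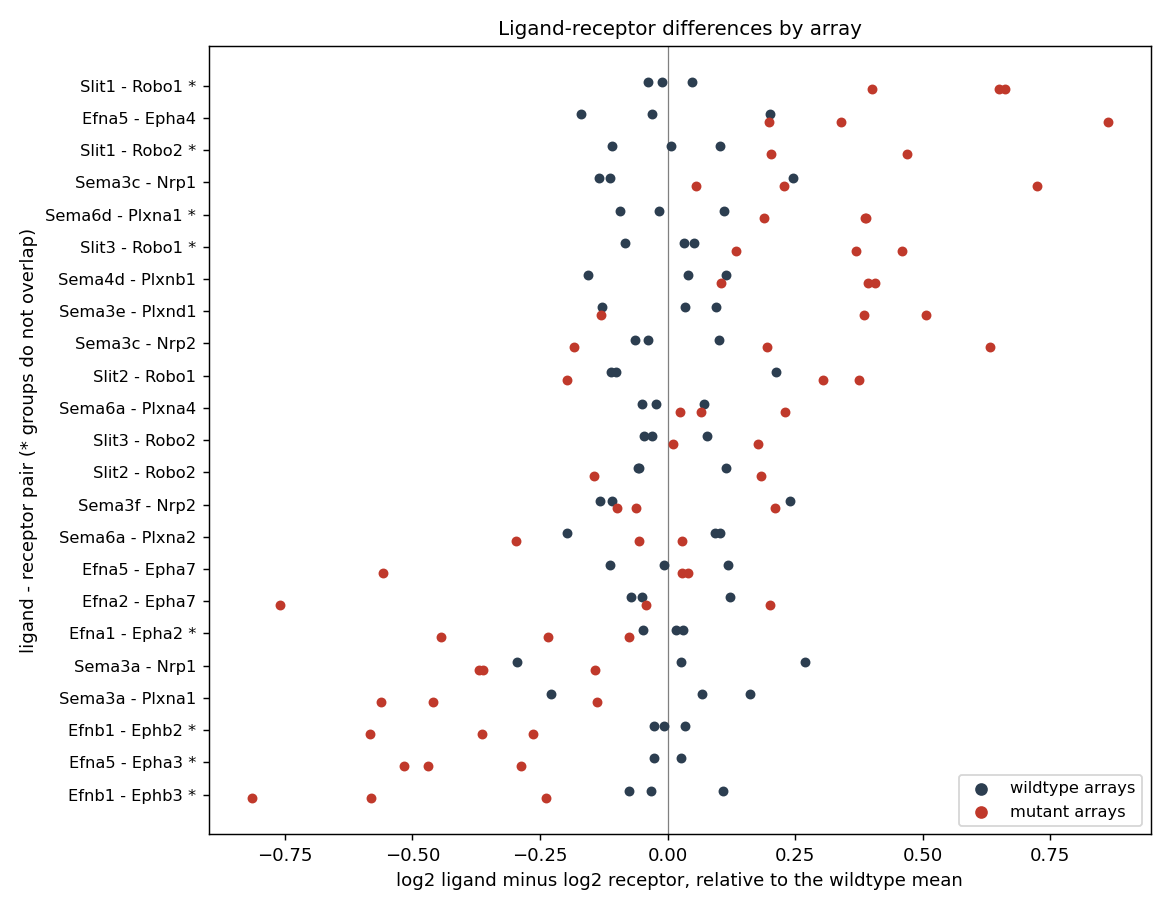
Log2 ligand minus log2 receptor on each array, relative to the wildtype mean (horizontal axis), for the 23 measured pairs sorted by their change, with wildtype arrays dark and mutant arrays red. Pairs marked with an asterisk have groups that do not overlap, and they run from Slit1 with Robo1 (0.57) at the top to Efnb1 with Ephb3 (-0.54) at the bottom.

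Intracellular partners of the receptors were counted in the same way. Of 54 listed genes (adaptors, kinases, GTPase regulators and cytoskeletal effectors) 49 were on the array and 41 were tested, 1 probe each. At an unadjusted p under 0.05 there were 4 higher and 3 lower (17.1%, against 12.2% of all probes), and 0 passed the adjusted threshold in limma. The groups did not overlap for 16 of the 41 (39.0%; 10 higher and 6 lower), against 19.7% of all probes. The difference between these shares was not tested. Dpysl3, of the collapsin response mediators that carry semaphorin signals to the cytoskeleton, had the smallest p. It read 9.85, 9.80 and 9.73 in mutants and 10.21, 10.22 and 10.15 in wildtypes, without overlap (log2 fold change -0.40, SE 0.07, adjusted p = 0.139). Vasp, an actin regulator, differed by 0.31 (SE 0.08, adjusted p = 0.242), Tiam1, an activator of Rac, by 0.40 (SE 0.12, adjusted p = 0.277), and Srgap1, a GTPase regulator that binds robos, by 0.25 (SE 0.09, adjusted p = 0.321). The median over the 41 was 0.031, against 0.0085 over all probes. The mean level of general neuron markers overlapped between groups, at 7.43 to 7.51 in mutants and 7.40 to 7.50 in wildtypes. Single markers differed in direction, with 4 of 8 tested higher and 4 lower. Elavl3, Elavl4 and Tubb3 lay wholly above the wildtypes, as 11.2% of all probes did, and 0 lay wholly below. At an unadjusted p under 0.05 in limma 2 were higher and 1 was lower.

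Genes listed as related to guidance, outside the member families, gave no small p. Of 19 listed genes 14 were tested, and 0 had an unadjusted p under 0.05 in limma, against 12.2% of all probes. The groups did not overlap for 1 of the 14 (7.1%), against 19.7% of all probes. Vasn had the smallest p (log2 fold change 0.19, SE 0.08, adjusted p = 0.418). Shh gave 0.21 (SE 0.12, adjusted p = 0.503), the neogenin ligand Rgma 0.15 (SE 0.09, adjusted p = 0.519) and the chemokine Cxcl12 -0.16 (SE 0.10, adjusted p = 0.551).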

How the data were processed

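The array tables hold scanner intensity (spot mean and local background median); per the file headers, the CodeLink scanner software made these values. The deposited series table holds background-subtracted intensity divided by 1 factor per array. Symbols came from the platform annotation, updated through Entrez IDs with a RefSeq gene table (21442 probes) or kept as given (135), from RefSeq accessions (416) or from the array file (263). Probes with several symbols (204) or none (12507) could not be members.

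Background was corrected with normexp (offset 50). Spots marked contaminated, irregular or masked were set to missing, control spots were left out, and log2 values were quantile-normalized. The offset shrinks changes of dim probes. Probes above background on at least 3 of 6 arrays, with 2 usable spots per group, were compared in limma 3.58.1 (R 4.3.3; lmFit and eBayes). The test was two-sided, and p-values of all 21688 probes were adjusted together by Benjamini-Hochberg, at a threshold of 0.05. SE is limma's standard error (for pairs, that of the difference of means). The script was tested on simulated data. Pairs used the brightest tested probe of each gene.

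Members, lists and pairs were chosen with earlier results of these data known. Named members are the 10 per direction with the smallest p, with every probe of those genes, and 23 genes chosen by role. Others named in passing were chosen after their values were seen. The number of arrays limits precision. Alternatives changed the normalization, background, starting values, filter, variance model, flagged spots and threshold, or left out 1 array.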

Additional observations from a re-analysis of the deposited data

How the results depend on the processing

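No member passed the adjusted threshold under any of the 16 alternatives (10 other settings and 6 single arrays left out), nor at an adjusted p under 0.1. Counts at an unadjusted p under 0.05 stayed between 8 and 16. These were 11.9% to 23.5% of tested members, against 8.05% to 13.8% of all probes. The count of probes with groups apart ran from 20 to 29 with single arrays left out, which leaves fewer values to overlap. These were 29.9% to 42.6% of tested members, against 27.2% to 32.4% of all probes. Without mutant b the shares were 29.9% and 29.7%. The median log2 fold change of the members was 0.014 with no filter, which adds dim probes, 0.018 with cyclic loess, 0.018 without mutant c and 0.058 without wildtype e. Pairs with groups apart numbered 5 with the filter on all 6 arrays, which drops pairs and probes, and 9 to 13 with single arrays left out. No paired analysis was possible because the replicate letters of mutants and wildtypes are not shared.

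Of 39 named probes, 28 kept 1 direction in every setting and 11 turned in at least 1. The cause of the turns was not tested. Probes that kept their direction could still move by over 1.5 times without a single array: Neo1 gave 0.075 without mutant c, Nrp1 (GE34128) -0.043 without mutant b and -0.24 without wildtype d, Robo2 (GE1484911) -0.051 and Robo3 -0.16 without mutant a, Sema4b -0.092 and Slit2 (GE33354) 0.028 without mutant b, and Slit2 (GE111774) -0.081 without mutant c. With cyclic loess, Unc5c gave -0.0014, Efna5 (GE35342) -0.019 and Sema3f -0.0018. Sema3f also gave -0.0022 with median centring and -0.0087 with array weights, and Efna5 (GE35342) -0.0007 with flagged spots kept. With single arrays left out, log2 fold changes ran from -0.017 to 0.093 for Epha3 (GE32955), -0.017 to 0.28 for Epha7, -0.013 to 0.10 for Unc5b and -0.034 to 0.086 for Unc5c. They ran from -0.14 to 0.099 (GE1505796) and -0.028 to 0.016 (GE35342) for Efna5, and from -0.093 to 0.092 (GE130342) and -0.18 to 0.037 (GE33207) for Nrp2. For Plxna1 they ran from -0.089 to 0.0087, for Robo1 from -0.11 to 0.041 and for Sema3f from -0.046 to 0.085. Probes near background, among them those of Slit1, Efnb2 and Ntn1, give only limited or no information.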
